A study of Mus musculus with 4 samples.

Results

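Acute phase and antimicrobial secreted proteins were followed in bone marrow-derived macrophages that lacked Hes1 and Hey1 and in their wild-type counterparts. The group was set by name and held 10 genes: the serum amyloid gene Saa3, the lipocalin gene Lcn2, the haptoglobin gene Hp, the complement genes C3, Cfb and Cfp, the pentraxin gene Ptx3, the protease inhibitor gene Slpi, the lysozyme gene Lyz2 and the cathelicidin gene Camp. A probe set, the cluster of short probes that reads one transcript, counted as a member's only if the platform annotation gave that gene alone. In all, 11 probe sets met this rule and covered 9 of the 10 genes, among 18193 genes measured. C3 had no such probe set and was not analysed here.

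The 4 groups were double knockout (DKO) cells with LPS, untreated DKO cells, wild-type (WT) cells with LPS and untreated WT cells, with 1 array each. DKO stands for knockout of both Hes1 and Hey1, 2 transcriptional repressors of the basic helix-loop-helix class. All cells had the C57BL/6 background, and the marrow had been cultured for 5 days with 10% serum and 10% supernatant of L929 cells as the source of macrophage colony-stimulating factor. LPS, the bacterial ligand of Toll-like receptor TLR4, was given at 2 ng/ml for 3 h. Per its design text, the study looked for inflammatory genes under the control of Hes1 and Hey1. The age and number of mice, the construction of the knockout alleles and any pooling of marrow are not given in the sources used here.

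With 1 array per group no comparison could be tested and no difference has a replicate check, so genes are called higher or lower where 2 arrays differed by at least 2-fold. Intensities are on a linear scale in arbitrary units. Values under 52.9 units, the median of all probe sets, were raised to that floor, so that a difference with one side under it is a bound, given as at least N-fold, and a gene under it on both sides has no difference. Bacterial control probe sets, read as background, reached 22.8 to 46.0 units at most. The arrays had been scaled by the authors to one trimmed mean, and the untreated WT array had a median of 59.1 units against 50.8 to 51.0 on the other 3. Hes1 read 5.80 and 2.14 units in DKO cells with and without LPS, against 26.7 and 45.4 in WT cells, all under the floor. Hey1 read 10.2 and 9.17 units in DKO cells with and without LPS, against 17.3 and 57.2 in WT cells, so the genotype labels were checked only weakly.

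The acute phase response is the rapid release of defence proteins that follows infection or injury. Interleukins 1 and 6 drive it in the liver, and macrophages make several of the same proteins locally through NF-kB and C/EBP factors. Serum amyloid A proteins bind lipids and attract leukocytes, lipocalin 2 starves bacteria by binding their iron-carrying siderophores, and haptoglobin captures free haemoglobin. Factor B and properdin, encoded by Cfb and Cfp, build and stabilise the convertase of the alternative complement pathway, and pentraxin 3 marks microbes for uptake. Lysozyme cuts bacterial cell walls, cathelicidin yields a peptide that disrupts membranes, and SLPI inhibits neutrophil serine proteases.

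Of the 9 genes with a probe set, 8 lay above the floor on at least 1 array and 4 on all arrays (Saa3, Slpi, Lyz2 and Cfp). Lcn2, Hp, Cfb and Ptx3 were above it on both LPS arrays and under it on both untreated arrays. They entered the LPS comparisons through their high side, so their counts describe them and support nothing further. Camp was under the floor on every array.

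**Figure D1:**
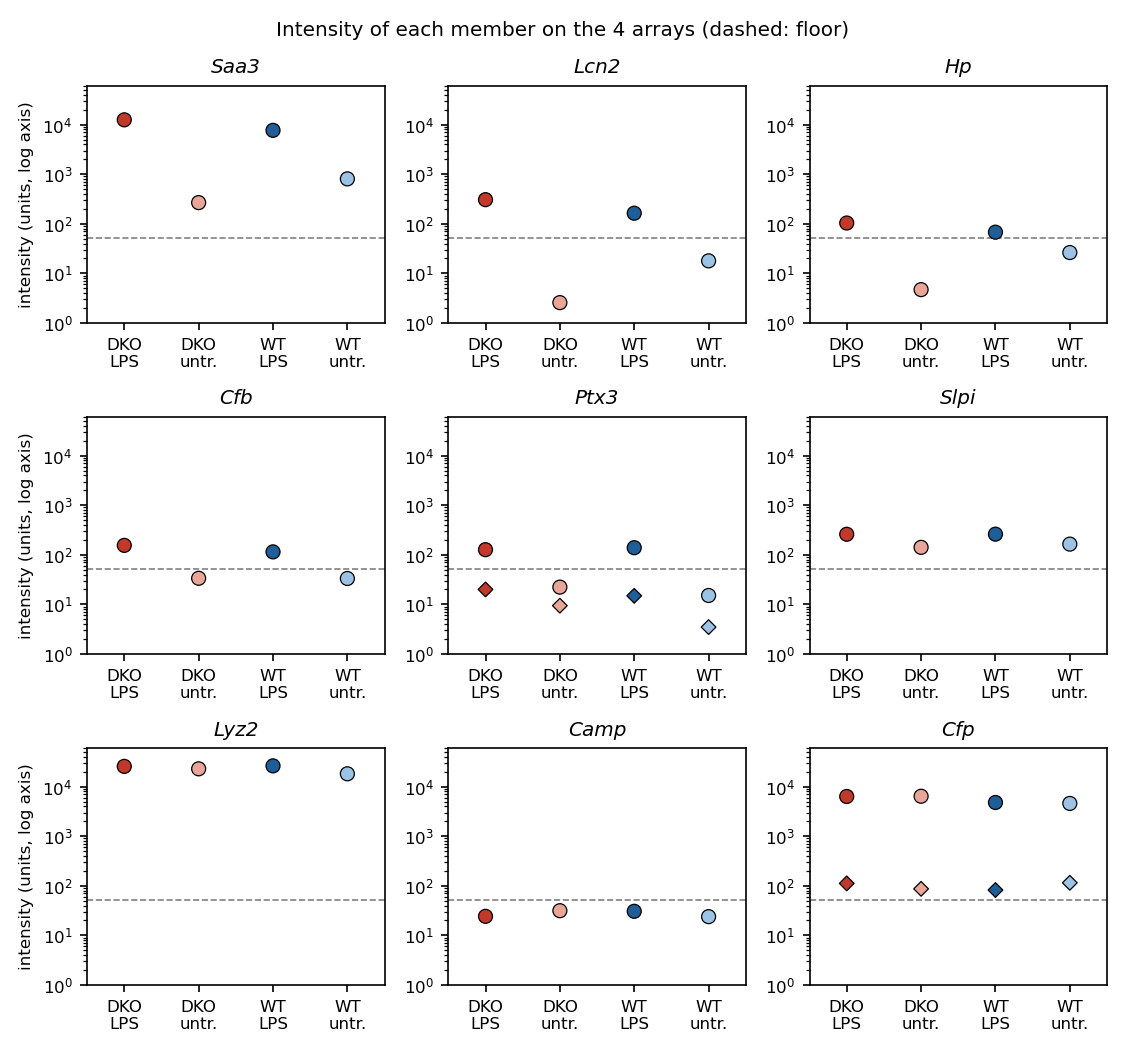
Intensity (arbitrary units, log axis) of each member on the 4 arrays. Circles are the probe set that stands for the gene, diamonds a second probe set, and the dashed line is the floor of 52.9 units. Saa3 spans 268 to 12486 units, whereas Lyz2 and the brighter Cfp probe set stay between 18116 and 26173 and between 4576 and 6393 units.

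Promoters of 4 members that read higher with LPS are shown because acute phase genes are known as C/EBP and NF-kB targets. The 250 bases before the annotated start were taken from RefSeq, build GRCm38.p6, where 8 of the 10 members had an entry. Hp and Cfb had none in the table used. Capitals mark a match to the C/EBP motif TTGCNNAA on either strand, and each sequence runs 5′ to 3′ towards the gene.
Saa3 (chr7:46715677-46715926, minus strand): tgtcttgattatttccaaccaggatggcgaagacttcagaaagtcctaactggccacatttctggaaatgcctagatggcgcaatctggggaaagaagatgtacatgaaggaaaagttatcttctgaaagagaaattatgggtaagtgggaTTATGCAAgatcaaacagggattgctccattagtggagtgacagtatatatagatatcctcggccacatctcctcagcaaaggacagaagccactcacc
Lcn2 (chr2:32387740-32387989, minus strand): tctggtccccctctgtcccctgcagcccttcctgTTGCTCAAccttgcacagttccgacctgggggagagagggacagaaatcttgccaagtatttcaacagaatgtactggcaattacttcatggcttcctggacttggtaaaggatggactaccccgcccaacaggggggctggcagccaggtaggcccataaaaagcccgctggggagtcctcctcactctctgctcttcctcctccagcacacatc
Ptx3 (chr3:66219637-66219886, plus strand): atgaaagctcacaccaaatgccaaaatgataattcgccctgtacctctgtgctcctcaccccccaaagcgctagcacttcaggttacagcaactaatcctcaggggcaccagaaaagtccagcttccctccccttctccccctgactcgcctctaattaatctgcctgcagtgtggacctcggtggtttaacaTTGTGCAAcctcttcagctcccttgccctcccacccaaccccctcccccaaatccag
Slpi (chr2:164356508-164356757, minus strand): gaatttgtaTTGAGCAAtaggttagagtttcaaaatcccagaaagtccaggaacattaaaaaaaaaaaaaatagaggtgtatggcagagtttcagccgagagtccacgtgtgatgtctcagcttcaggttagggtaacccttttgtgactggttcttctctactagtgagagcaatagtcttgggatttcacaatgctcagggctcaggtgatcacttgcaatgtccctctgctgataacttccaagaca

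The match ended 92 bases before the start in Saa3, 209 in Lcn2, 50 in Ptx3 and 234 in Slpi. Promoter windows, which also took in 50 bases after the start, held such a match in 10.8% of 32851 entries. The windows of Saa3, Lcn2, Ptx3, Slpi and C3 held 1 match each, and those of Lyz2, Camp and Cfp held none. The NF-kB consensus, found in 8.46% of windows, gave 2 overlapping matches across the start of Ptx3 and 1 match after the start of Camp. The class C site CACGNG, bound by the Hes and Hey families and found in 27.5% of windows, occurred in Slpi as CACGTG and in Saa3 after the start. The N-box CACNAG, found in 42.5% of windows, occurred in Saa3 at the same bases as its class C site, and in Ptx3, Slpi, Lyz2, Cfp and C3. The TATA box TATAAA, found in 13.6%, occurred after the start of C3 and in no other member with an entry. The Saa3 start in the table lies inside the gene's annotated span. These are matches of letters within short windows and show no binding.

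Saa3, which encodes the serum amyloid A form made by mouse macrophages, varied most among the 4 members above the floor on all arrays. It read 12486 units in DKO cells with LPS and 268 in untreated DKO cells, against 7661 in WT cells with LPS and 805 in untreated WT cells. The knockout array was thus the lowest of the 4 without LPS and the highest with it. LPS raised Saa3 46.7-fold in DKO cells (log2 difference 5.54) and 9.51-fold in WT cells (3.25). In order of LPS effect it stood 14th of 11241 genes in DKO cells and 42nd of 11491 in WT cells. Here and in the genotype comparisons below, bounds were ranked at their own size, so a gene with a bound could stand further out.

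Between genotypes, Saa3 was 3.01-fold lower in untreated DKO cells than in untreated WT cells (log2 difference -1.59), the 14th lowest of 11380 genes. With LPS it was 1.63-fold higher in DKO cells (0.70), short of the 2-fold mark, where 284 of 11236 genes stood at or above it. The LPS effect was therefore 4.90-fold larger in DKO cells (difference of log2 effects 2.29), the 4th highest of the 9982 genes above the floor on all arrays. Saa3 was placed in the group with this crossing pattern known, so the pattern is a description. As a yardstick within the arrays, the 2 brightest probe sets of a gene gave untreated genotype differences a median of 0.20 apart on the log2 scale and under 0.72 apart in 95% of 4709 genes. Saa3 has a single probe set, and this yardstick says nothing of variation between cultures.

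The crossing at any size was common, since 1762 of the 9982 genes (17.7%) read lower without LPS and higher with it in DKO cells. Saa3 was 1 of 20 genes at least 1.5-fold lower and at least 1.5-fold higher in turn. The 5 genes whose log2 values over the 4 arrays, centred on their mean, lay nearest to those of Saa3 among 9981 were Ehd1, an endocytic recycling gene (distance 0.52), the membrane metalloprotease gene Mmp14 (0.68), the phosphodiesterase gene Pde4b (0.76), the ribonuclease-family gene Zc3h12c (0.81) and the chemokine gene Cxcl10 (0.84). Ehd1 read 9554 units in DKO cells with LPS and 338 without, against 7279 and 732 in WT cells. Its LPS effect was 28.3-fold in DKO cells and 9.95-fold in WT cells.

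**Figure D2:**
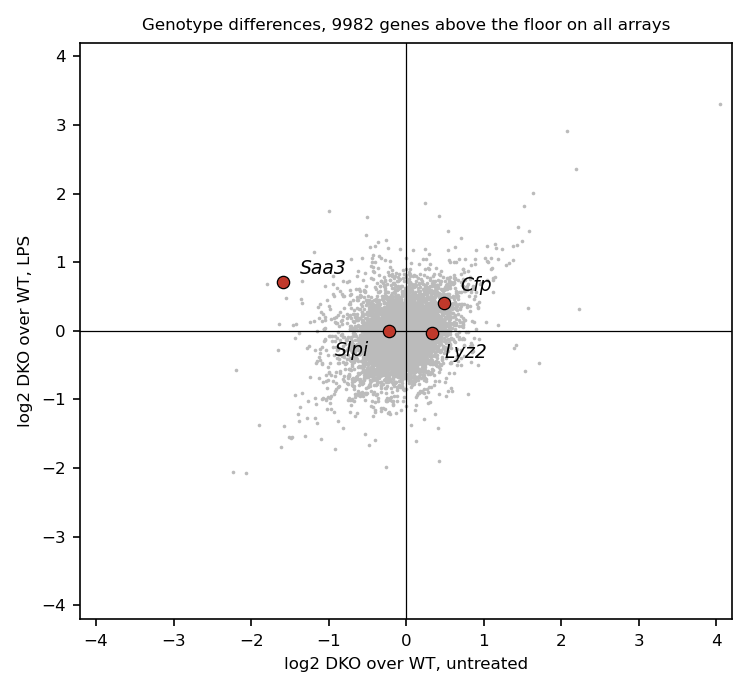
Log2 difference of DKO over WT cells without LPS (horizontal axis) and with LPS (vertical axis) for the 9982 genes above the floor on all arrays (grey). The 4 members among them are marked in red, with Saa3 at -1.59 and 0.70 at the left edge of the cloud and Slpi, Lyz2 and Cfp inside it.

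Lcn2 read 307 units in DKO cells with LPS and 2.58 in untreated DKO cells, against 164 in WT cells with LPS and 17.9 in untreated WT cells. Both untreated values lay under the floor and have no reliable order. With LPS Lcn2 was at least 5.79-fold higher than without in DKO cells and at least 3.09-fold higher in WT cells. Under LPS it read 1.87-fold higher in DKO than in WT cells (0.91), short of 2-fold, with 129 of 11236 genes at or above that value.

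Hp, like Lcn2, passed the floor with LPS only. It read 104 units in DKO cells with LPS and 4.71 without, against 67.8 and 26.3 in WT cells. Its bounds for LPS were at least 1.96-fold in DKO cells and at least 1.28-fold in WT cells, neither past the mark, and it read 1.53-fold higher in DKO cells under LPS. The DKO bound passed the mark with array medians set equal (2.04-fold) and after quantile normalization (2.11-fold), while the WT bound did not. With the floor at the 35th percentile Hp passed in both genotypes, at 4.36-fold in DKO and 2.57-fold in WT cells. The background controls reached 22.8 units on the DKO array and 46.0 on the WT array with LPS. Without LPS they reached 23.5 units on the DKO array and 32.7 on the WT array, each above the Hp value there.

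Of the 4 members past 2-fold with LPS, Ptx3 alone did not read higher in DKO than in WT cells under LPS. Its brighter probe set gave 127 units in DKO cells with LPS and 22.3 without, against 139 and 15.1 in WT cells. The LPS bounds were at least 2.40-fold in DKO cells and at least 2.63-fold in WT cells, and under LPS the DKO value was 1.10-fold lower than the WT value (-0.13). The second probe set stayed under the floor on all arrays, between 3.49 and 20.0 units.

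Cfb, whose product carries the protease of the alternative pathway convertase, read 155 units in DKO cells with LPS and 33.6 without, against 115 and 33.3 in WT cells. It was at least 2.93-fold higher with LPS in DKO cells and at least 2.17-fold higher in WT cells. With LPS it read 1.35-fold higher in DKO than in WT cells (0.44), where 779 of 11236 genes stood at or above it.

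The 2 probe sets of Cfp, which encodes properdin, disagreed on LPS, and neither passed 2-fold in any comparison. The bright probe set gave 6319 units in DKO cells with LPS and 6393 without, against 4782 and 4576 in WT cells. LPS moved it by -0.017 on the log2 scale in DKO cells and by 0.063 in WT cells. The DKO arrays read higher than the WT arrays in both states, by 1.32-fold with LPS and 1.40-fold without. A dimmer second probe set gave 112 and 86.9 units in DKO cells with and without LPS, against 82.2 and 115 in WT cells. Its LPS effect was 0.36 in DKO cells and -0.48 in WT cells, a difference of 0.85. It read 1.36-fold higher in DKO cells with LPS and 1.32-fold lower without, where the bright probe set read higher.

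Slpi read 259.5 units in DKO cells with LPS and 141 without, against 261 and 164 in WT cells. It read 1.84-fold higher with LPS in DKO cells and 1.59-fold higher in WT cells, short of 2-fold in both. The genotypes differed by -0.007 on the log2 scale with LPS and by -0.22 without.

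Lyz2 was bright on every array. It read 25585 units in DKO cells with LPS and 22839 without, against 26173 and 18116 in WT cells. Its LPS effect was 1.12-fold in DKO cells and 1.44-fold in WT cells, and the genotype difference was -0.033 with LPS and 0.33 without. The LPS effect in WT cells, 0.53 on the log2 scale, became 0.23 after quantile normalization and 0.75 with array medians set equal. The untreated genotype difference became 0.17 and 0.55. The brightest probe set of each array read 35237 to 43964 units, and saturation at the level of Lyz2 was not tested. Lyz1 is a near-identical copy, and 2 of its 3 annotated probe sets carry the suffix that marks possible cross-hybridisation. Those 2 gave 26978 and 27442 units in DKO cells with LPS, against 27766 and 29688 in WT cells with LPS, while the third gave 42.4 to 57.1 units over the arrays. The bright Lyz1 signals cannot be told apart from Lyz2.

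Camp, the cathelicidin gene of neutrophil granules, read 24.3 and 31.5 units in DKO cells with and without LPS, against 30.6 and 23.9 in WT cells. All lay under the floor. Of 14 measured neutrophil and granulocyte precursor markers 9 were under the floor on all arrays, among them Mpo, Elane, Ltf, Ngp and S100a9. The summed intensity of the 12 markers other than Lcn2 and Camp was 1871 units in DKO cells with LPS and 2315 without, against 2266 and 2792 in WT cells, with most of it from Mmp8, Csf3r and S100a8. Csf3r read higher in DKO than in WT cells, by 1.63-fold with LPS and 1.47-fold without. Mmp8 and S100a8 read lower in DKO cells in both states. The part of neutrophils and their precursors in the Lcn2 values was not tested. All 9 measured macrophage markers, Lyz2 among them, were above the floor on every array, from 13253 to 24370 units for Csf1r, Adgre1 and Cd68 and from 395 to 1917 for Mertk. With LPS Cd14 was higher and Mertk lower past 2-fold in both genotypes. All 9 read higher in untreated DKO than in untreated WT cells, with a median log2 difference of 0.30 and none past 2-fold. Among all genes tested, 5352 of 11380 read higher in that comparison, with a median of -0.017. For Lyz2 the difference of 0.33 became 0.17 after quantile normalization and 0.55 with array medians set equal. Without LPS the brightest probe set read 41474 units in DKO cells and 35237 in WT cells. Whether bright genes as a whole shifted between these 2 arrays was not tested. Of 7 stromal markers 6 were under the floor on all arrays, Col1a1, Col1a2 and Dcn among them. The 7th, Pdgfrb, read 144 units in DKO cells with LPS and 4.05 without, against 62.1 and 24.2 in WT cells. It was at least 2.72-fold higher with LPS in DKO cells, at least 1.17-fold higher in WT cells, and 2.32-fold higher in DKO than in WT cells with LPS. The summed intensity of these 7 genes was 269 units in DKO cells with LPS and 131 without, against 219.7 and 149.6 in WT cells. With 6 of the 7 under the floor, the rise of the sum with LPS in DKO cells came from Pdgfrb alone. The part of stromal cells in the Saa3 and Lcn2 values was not tested. All 3 liver markers, Alb, Apoa1 and Ttr, were under the floor. In such bulk samples fewer cells of a type and less RNA per cell cannot be told apart.

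By count, Saa3, Lcn2, Cfb and Ptx3 were at least 2-fold higher with LPS in DKO cells, 4 of the 8 members with a value, where 4.66% of 11241 genes were. The same 4 of 8 were higher with LPS in WT cells, where 3.36% of 11491 genes were, and no member was lower in either, where 4.77% and 3.41% of genes were. The members' median log2 difference was 1.12 in DKO cells and 0.89 in WT cells, against -0.10 and -0.086 over all genes tested. Lcn2, Hp, Cfb and Ptx3 entered both medians as bounds set by the floor, so the medians are a description. Without LPS, Saa3 alone of 4 members with a value was lower in DKO than in WT cells, where 0.984% of 11380 genes were lower. None was higher, against 0.466% of genes. With LPS none of 8 members passed 2-fold in either direction, where 0.845% of 11236 genes were higher and 0.934% lower. The members' median was then 0.42, against -0.040 over all genes, with 5 of 8 above 0. For the difference of LPS effects Saa3 was the 1 of 4 members past 2-fold, where 1.31% of 9982 genes were higher and 0.721% lower. Because Saa3 was placed in the group with this pattern known, its counts without LPS and for the difference of LPS effects are a description.

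The shares over all genes rest on scaling. With array medians set equal, 0.864% of genes were higher and 0.383% lower in untreated DKO than in untreated WT cells, 4.58% higher and 1.71% lower with LPS in WT cells, and 0.820% higher and 1.71% lower for the difference of LPS effects. Under that scaling all genes had a median of 0.19 in place of -0.017 for the untreated genotypes, 0.12 in place of -0.086 for LPS in WT cells and -0.26 in place of -0.047 for the difference of LPS effects. Saa3 was at -1.38 for the untreated genotypes under it, still past 2-fold.

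**Figure D3:**
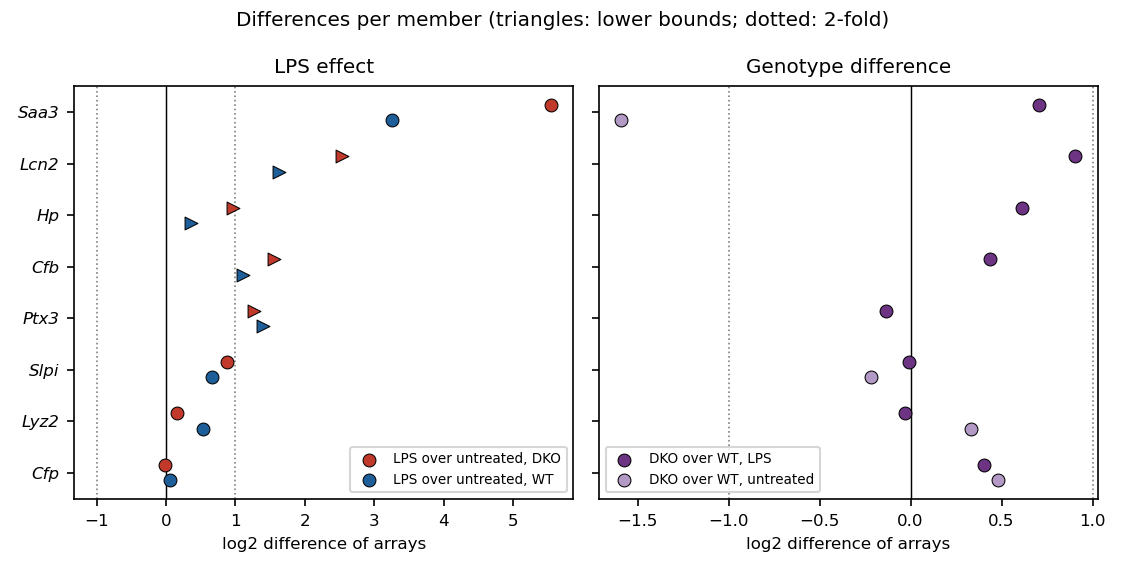
Log2 difference for LPS over untreated cells of each genotype (left) and for DKO over WT cells in each state (right), per member with a value. Triangles are lower bounds, circles are measured on both arrays, and dotted lines mark 2-fold. In the left panel the DKO point lies right of the WT point for Saa3 (5.54 and 3.25) and left of it for Lyz2 (0.16 and 0.53).

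Other acute phase proteins were largely not detected. Of 20 measured genes of this list 16 were under the floor on all arrays, including the liver amyloids Saa1 and Saa2, the orosomucoid genes Orm1, Orm2 and Orm3, and Crp. The ceruloplasmin gene Cp encodes a copper-carrying ferroxidase. By its brightest probe set it was at least 2.09-fold higher in DKO than in WT cells with LPS (a bound), at 110 against 21.2 units. That was 1 of 4 list members with a value, where 0.845% of all genes were higher. Cp was also at least 2.09-fold higher with LPS in DKO cells, at 110 against 11.2 units, where 4.66% of all genes were higher. It was under the floor on every other array and entered both comparisons through its high side. Its counts therefore support nothing further. Its further probe sets above the floor gave bounds of at least 1.87-fold and at least 1.39-fold in both comparisons, short of the mark. The neuronal pentraxin gene Nptx1 was 2.04-fold lower in untreated DKO than in untreated WT cells, at 217 against 442 units. With LPS it read 156 in DKO and 277 in WT cells, short of 2-fold.

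Among complement components, C1qa, which encodes a chain of the classical pathway's recognition molecule, was 2.86-fold higher in DKO than in WT cells with LPS, at 9145 against 3197 units. Without LPS it was 2.72-fold higher, at 8804 against 3237 units. The ficolin gene Fcna, which encodes a lectin that starts the lectin pathway, was 2.17-fold higher in untreated DKO cells, at 1510 against 697 units, and read 1205 against 723 with LPS. These were 2 of 8 listed components with a value higher without LPS and, for C1qa, 1 of 7 with LPS, and none was lower. Over all genes 0.466% were higher and 0.984% lower without LPS, and 0.845% and 0.934% with LPS. Partner chains C1qb and C1qc read 1.52-fold and 1.68-fold higher without LPS by their brightest probe sets, short of the mark. By their brightest probe sets no listed component with a value passed 2-fold with LPS in either genotype. The list leaves out the members, of which Cfb did pass. The dimmest of the 3 C1qb probe sets read 5622 units with LPS and 4212 without in DKO cells, and 2415 and 6872 in WT cells, where it was 2.85-fold lower with LPS. None of 9 complement regulators and receptors with a value passed 2-fold between genotypes. The anaphylatoxin receptor gene C5ar1 read 4138 units in DKO cells with LPS and 2089 without, against 3142 and 2099 in WT cells.

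Of 22 other antimicrobial proteins measured 13 were under the floor on all arrays. Acod1, which makes the antibacterial metabolite itaconate, was the 1 member past 2-fold with LPS, and the 1 lower in untreated DKO cells, at 191 against 405 units (2.12-fold). Over all genes 4.66% were higher with LPS in DKO and 3.36% in WT cells, and 0.984% were lower in untreated DKO cells. The LPS effect of Acod1 was 124-fold in DKO cells and 53.0-fold in WT cells. The oxidase subunit gene Cybb, the iron transporter gene Slc11a1 and the pore-forming Mpeg1 stayed short of 2-fold in every comparison.

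Genes that induce acute phase proteins, and their receptors, were higher with LPS in 5 of 11 with a value in DKO cells and in 5 of 11 in WT cells. Over all genes 4.66% and 3.36% were higher. The 5 were Tnf (log2 difference 7.31 in DKO and 6.92 in WT cells), Il1b (at least 143-fold and at least 70.3-fold), Il6 (at least 47.3-fold and at least 24.4-fold), Il1a and the receptor gene Tnfrsf1b. Il1b, Il6 and Il1a were under the floor without LPS and entered through their high side. Il6ra, which encodes the ligand-binding chain of the interleukin 6 receptor, was lower with LPS in both, by -1.96 in DKO cells and -1.56 in WT cells. Between genotypes under LPS, Il1b alone passed 2-fold, at 7559 units in DKO against 3718 in WT cells (2.03-fold), with Il6 and Il1a at 0.95 and 0.89. Over all genes 0.845% were higher and 0.934% lower in that comparison.

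Transcription regulators of acute phase genes were higher with LPS in 8 of 10 with a value in DKO cells and in 7 of 10 in WT cells. Over all genes 4.66% and 3.36% were higher. Nfkbiz, the nuclear IkB protein required for Lcn2 induction in mouse macrophages, read 9241 units in DKO cells with LPS and 333 without, against 6157 and 421 in WT cells. Its LPS effect was 27.8-fold in DKO cells and 14.6-fold in WT cells by this probe set, while 2 dimmer ones gave 23.1-fold and 7.85-fold in DKO cells against 19.7-fold and 7.77-fold in WT cells. Cebpd, a C/EBP factor of the acute phase, was 6.70-fold higher with LPS in DKO cells and 4.05-fold higher in WT cells. Its second, dimmer probe set gave 321 units in DKO and 101 in WT cells with LPS, a 3.18-fold difference, against 1.44-fold by the bright one. By the dimmer one the LPS effect of Cebpd was 3.28-fold in DKO cells and 1.16-fold in WT cells. Relb was 10.1-fold higher with LPS in DKO cells and 7.99-fold higher in WT cells, Nfkb2 had LPS effects of 2.91 and 2.43 on the log2 scale, and Irf1 of 2.73 and 2.46. Cebpa, the family member of resting myeloid cells, was lower with LPS by -2.05 in DKO cells and -1.34 in WT cells. By their brightest probe sets none of the 10 passed 2-fold between genotypes. Their median log2 difference of DKO over WT cells was 0.28 with LPS and -0.12 without, against -0.040 and -0.017 over all genes.

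Receptors and partners of the members gave 2 of 12 higher in DKO than in WT cells with LPS and none lower. Over all genes 0.845% were higher and 0.934% lower. Fpr2, a formyl peptide receptor that also binds serum amyloid A and the cathelicidin peptide, read 1591 units in DKO cells with LPS and 31.1 without, against 572 and 39.7 in WT cells. It was 2.78-fold higher in DKO than in WT cells under LPS. Cd163, the scavenger receptor for haemoglobin bound to haptoglobin, read 116 units in DKO and 46.3 in WT cells with LPS, a bound of at least 2.18-fold. That WT value lay under the floor, so Cd163 entered through its high side and its place in the count supports nothing further. Without LPS it read 78.6 in DKO and 51.1 in WT cells, the last under the floor. Tlr2 was 9.97-fold higher with LPS in DKO cells and 8.52-fold higher in WT cells, and Hmox1, the haem-degrading enzyme gene, 2.18-fold and 2.27-fold higher. The scramblase gene Plscr1 was 2.53-fold higher with LPS in DKO cells and read 1.96-fold higher in WT cells.

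**Figure D4:**
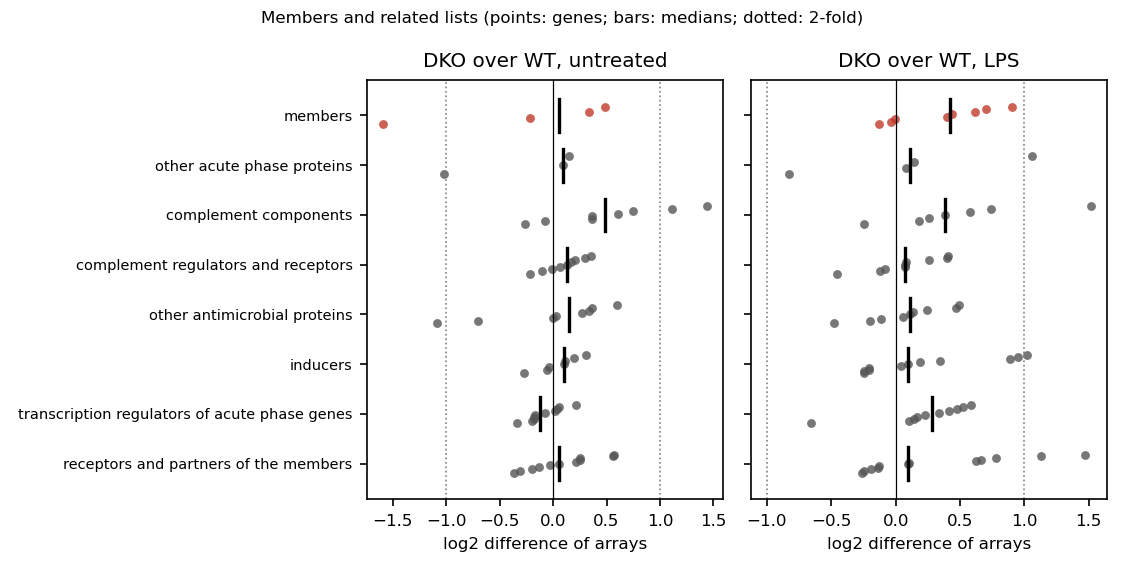
Log2 difference of DKO over WT cells without LPS (left) and with LPS (right) for the members (red) and 7 related lists (grey). Each point is a gene with a value, bars are medians, and dotted lines mark 2-fold. Saa3 is the red point at -1.59 on the left, and the members' median is 0.42 on the right.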

How the data were processed

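RNA of 4 macrophage cultures was measured on Affymetrix mouse arrays of 45101 probe sets. The authors deposited 1 linear intensity per probe set and array, and the values show that each array had been scaled to a trimmed mean of 500.0 after 2% was cut at either end. The sources used here do not name the tool. Per the labels' protocols, total RNA was column-purified, amplified and labelled with biotin. The number of arrays limits the precision.

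Control probe sets (64) were dropped. The platform annotation paired 34945 probe sets with a single gene, 932 with several and 9160 with none, and 34741 symbols were updated by Entrez identifier. A gene's value is its probe set with the highest mean. Values were floored at 52.9 units before log2, and array differences were counted at 2-fold. The code was tested on simulated arrays with known folds. Named genes were all members, list genes past 2-fold between genotypes, the 3 largest LPS differences per list and direction (printed only where past 2-fold) and the 5 genes nearest to Saa3. Other named genes, such as C5ar1, Cebpd, Cybb and single markers, were picked after their values were seen. The members and the 7 related and 9 marker lists were chosen with earlier results of these data known. Python 3.11.15, numpy 2.4.6 and pandas 2.3.3 were used.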

Additional observations from a re-analysis of the deposited data

Results flagged for a closer look

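For 3 members the arrays moved in opposite directions under one contrast, which was not tested because each group holds 1 array. For Saa3, DKO over WT cells was 0.70 on the log2 scale with LPS and -1.59 without. For Lyz2 it was -0.033 with LPS and 0.33 without. For Cfp, LPS over untreated was -0.017 in DKO cells and 0.063 in WT cells. These Cfp values come from its bright probe set, and the dimmer one gave 0.36 in DKO cells and -0.48 in WT cells. Beside the median gap between 2 probe sets of a gene, the Lyz2 value with LPS (gap 0.18) and both values of the bright Cfp probe set (gaps 0.20 in DKO and 0.26 in WT cells) are small. The WT value of Cfp became -0.019 after quantile normalization.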

How the results depend on the processing

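No paired analysis was possible because each group holds 1 array, and no replicate could be left out. Saa3 has 1 probe set and lies above every floor tried, so the floor and probe set alternatives could not change it. Over the rescalings and the added offset it ranged from 5.46 to 5.55 for LPS in DKO cells, from 3.22 to 3.47 for LPS in WT cells, from -1.59 to -1.38 for the untreated genotypes, from 0.66 to 0.71 for the genotypes with LPS, and from 2.08 to 2.29 for the difference of LPS effects. The other induced members depend on the floor. With it at the 65th percentile only 1 member, Saa3, was past 2-fold for LPS in each genotype, against 4, where 4.58% of genes in DKO and 3.32% in WT cells were higher. Hp, Cfb and Ptx3 had no value there, nor had Lcn2 in WT cells. With no floor and 16 units added, 2 members were lower in untreated DKO cells (Saa3 and Hp) and 3 had a larger LPS effect in DKO cells (Saa3, Hp and Lcn2), where 3.89% and 7.07% of genes were, although the untreated values of Hp and Lcn2 lie within the background. At 1.5-fold 3 members were higher in DKO cells with LPS (Saa3, Lcn2 and Hp), against 0 at 2-fold, where 4.03% of genes were. At 3-fold 2 members, Saa3 and Lcn2, passed for LPS in each genotype, where 2.46% of genes in DKO and 1.62% in WT cells did. Ptx3 fell short of 2-fold for LPS when its probe sets' median was taken, at 0.47 in DKO and 0.54 in WT cells. No member past 2-fold changed sign under any of these alternatives.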

Other observations

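Cp is read by 8 probe sets, and all 8 gave their highest value in DKO cells with LPS. Only 3 of them were above the floor there, at 110, 98.7 and 73.6 units, against 21.2, 24.8 and 24.6 in WT cells with LPS, and none was above it on another array. Their bounds were at least 2.09-fold, 1.87-fold and 1.39-fold, so only the first passed the mark. That probe set carries the suffix that marks possible cross-hybridisation. The probe sets share one RNA sample and are not replicates.

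C1qb is read by 3 probe sets that disagree in untreated cells. DKO over WT was 0.60 and 0.50 on the log2 scale by 2 of them and -0.71 by the third, which also gave the lowest LPS effect in WT cells (-1.51). With LPS all 3 read higher in DKO cells, at 0.39, 0.68 and 1.22.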
